A study of Homo sapiens with 2 samples.

Results

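The E proteins TCF3, TCF4 and TCF12, the inhibitors ID1, ID2, ID3 and ID4, and a further inhibitor, MDFI, were read on 2 expression arrays of SK-N-MC cells. SK-N-MC is a human line that the submitters call a neuroepithelioma line and is now placed among Ewing tumours. 1 array carried RNA of cells stably transfected with the empty pCMV-Script vector (Vector Control #1). The other carried RNA of cells transfected with the same vector holding the human melanotransferrin cDNA (Hyper Clone #4). Both groups thus share the cell line and the vector backbone, and each label gives a single numbered line. The 8 genes were chosen by name out of 19775 named genes on the array, and 36 probe sets are annotated to 1 of them alone, out of 41097 probe sets with a single gene. A probe set is a group of short probes on the array that is read as 1 signal for a transcript. The names were picked with the signals of these arrays already known, TCF4 signals included, so all values are a description.

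E proteins are basic helix-loop-helix transcription factors that pair with each other or with tissue-specific factors of that class and bind the E-box, a short DNA element read CANNTG. ID proteins have the helix-loop-helix but lack the basic stretch that contacts DNA, so a dimer of an E protein with an ID protein does not bind. MDFI is an unrelated inhibitor that holds factors of the MyoD family inactive. ID genes are known targets of BMP signalling through SMAD proteins. In neural and mesenchymal precursors the balance of E proteins and ID proteins is known to influence whether cells divide or differentiate.

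The upstream sequences shown are those of MDFI, the member with the largest difference, and of ID2 and ID4, the only inhibitors whose window held an E-box. They come from RefSeq (GRCh38.p14). Each is the plus strand, 5′ to 3′, over the 250 bases before an annotated start, with every CANNTG match in capitals. The windows are chr6:41636768-41637017 for MDFI, chr2:8681806-8682055 for ID2 and chr6:19837120-19837369 for ID4.
MDFI: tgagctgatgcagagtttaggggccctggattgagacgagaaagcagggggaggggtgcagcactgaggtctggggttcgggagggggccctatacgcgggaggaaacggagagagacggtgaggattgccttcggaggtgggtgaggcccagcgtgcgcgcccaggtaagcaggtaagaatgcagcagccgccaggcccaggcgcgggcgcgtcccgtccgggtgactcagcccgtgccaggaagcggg
ID2: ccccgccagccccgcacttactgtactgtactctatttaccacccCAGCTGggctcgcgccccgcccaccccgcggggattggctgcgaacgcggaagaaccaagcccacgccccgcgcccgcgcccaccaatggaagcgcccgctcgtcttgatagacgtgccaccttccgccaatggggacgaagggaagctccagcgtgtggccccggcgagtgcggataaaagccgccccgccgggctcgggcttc
ID4: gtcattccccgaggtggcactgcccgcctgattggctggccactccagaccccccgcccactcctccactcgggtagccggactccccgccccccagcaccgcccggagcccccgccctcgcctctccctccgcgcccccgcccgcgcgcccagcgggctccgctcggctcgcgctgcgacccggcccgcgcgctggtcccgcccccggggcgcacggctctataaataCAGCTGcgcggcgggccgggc

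Both matches read CAGCTG, a palindrome and hence the same on both strands, and began at position -205 of ID2 and -21 of ID4 relative to the start. The search covered windows of 250 bases before and 50 bases after each annotated start, 22 windows for the 8 genes, and found the motif in 11 of them. Over all 35116 such RefSeq windows, 68.7% had CANNTG and 17.9% held CAGCTG. The single windows of ID1, ID3 and TCF3 and both windows of MDFI held no match, whereas 7 of 10 TCF4 windows and 2 of 5 TCF12 windows did. A match is a description of letters and says nothing of binding in these cells.

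The arrays gave single measurements, with no replicate and no test between the groups, so precision is limited by there being 1 array each. Signals below 208, a floor taken from probe sets of genes that this cell type should not express, were treated as not measured, and a probe set at or above it is called detected. On the vector control array 50.8% of all probe sets were detected and on the clone array 47.3%. The melanotransferrin gene, MELTF, checked the labels: its probe set 220043_s_at went from 18.4 to 4449.4, at least 21.4-fold higher, while 1556538_at read 245.8 and 209.3 and the remaining pair was undetected in both lines. Of the Ewing tumour markers, all 7 with a probe set were detected in both lines. Of the melanocyte markers 4 of 6 were undetected in both, among them TYR and SOX10, as were 2 of 5 lymphocyte and 1 of 7 fibroblast markers. The remaining markers of these types were detected in at least 1 line. MITF read 318.4 and 506.7, and the lymphocyte marker PTPRC was bright, at 15581.1 and 13942.6. The other 6 fibroblast markers were detected in both lines, COL1A1 at 15581.8 and 10279.1. Other probe sets of the same gene on the same arrays were the only repeat readings. Over 5387 genes with several, their log2 ratios (clone over control) had a pooled SD of 0.35. That SD fell with brightness, from 0.47 at mean signals under 500 to 0.28 at 1000 to 5000 and 0.17 at 5000 or more. The log2 ratios of all probe sets at 5000 or more, across genes, had an SD of 0.24. The arrays had been scaled to the same mean. Centring them instead on transcripts spiked in at hybridisation would add 0.50 to every log2 ratio, and centring on the poly-A spikes would take 0.61 away, so each direction below is relative to all genes. Within that shift, 7 of the 8 genes turn sign under one or the other centring; MDFI does not.

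Of the 36 member probe sets, 30 were detected in both lines, 2 in the vector control alone, 1 in the clone alone and 3 in neither. Of the 33 measured, 19 read higher in the clone and 14 lower, where 45.9% of all 23996 measured probe sets read higher. None was 2-fold higher and 3 were at least 2-fold lower, against 1.24% and 1.93% of all measured probe sets. These 3 belonged to MDFI, ID4 and TCF3. Of the 30 detected in both lines, 7 had a log2 ratio beyond the pooled SD of 0.35 in either direction, beside 31.9% of all such probe sets. Taking the brightest probe set for each gene, 5 genes stood higher and 3 lower in the clone, and MDFI alone passed 2-fold. Over the 12663 measured genes, 1.21% passed 2-fold upward and 1.9% downward. The median log2 ratio of the 8 genes was 0.16, and that of all measured genes -0.022.

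**Figure D1:**
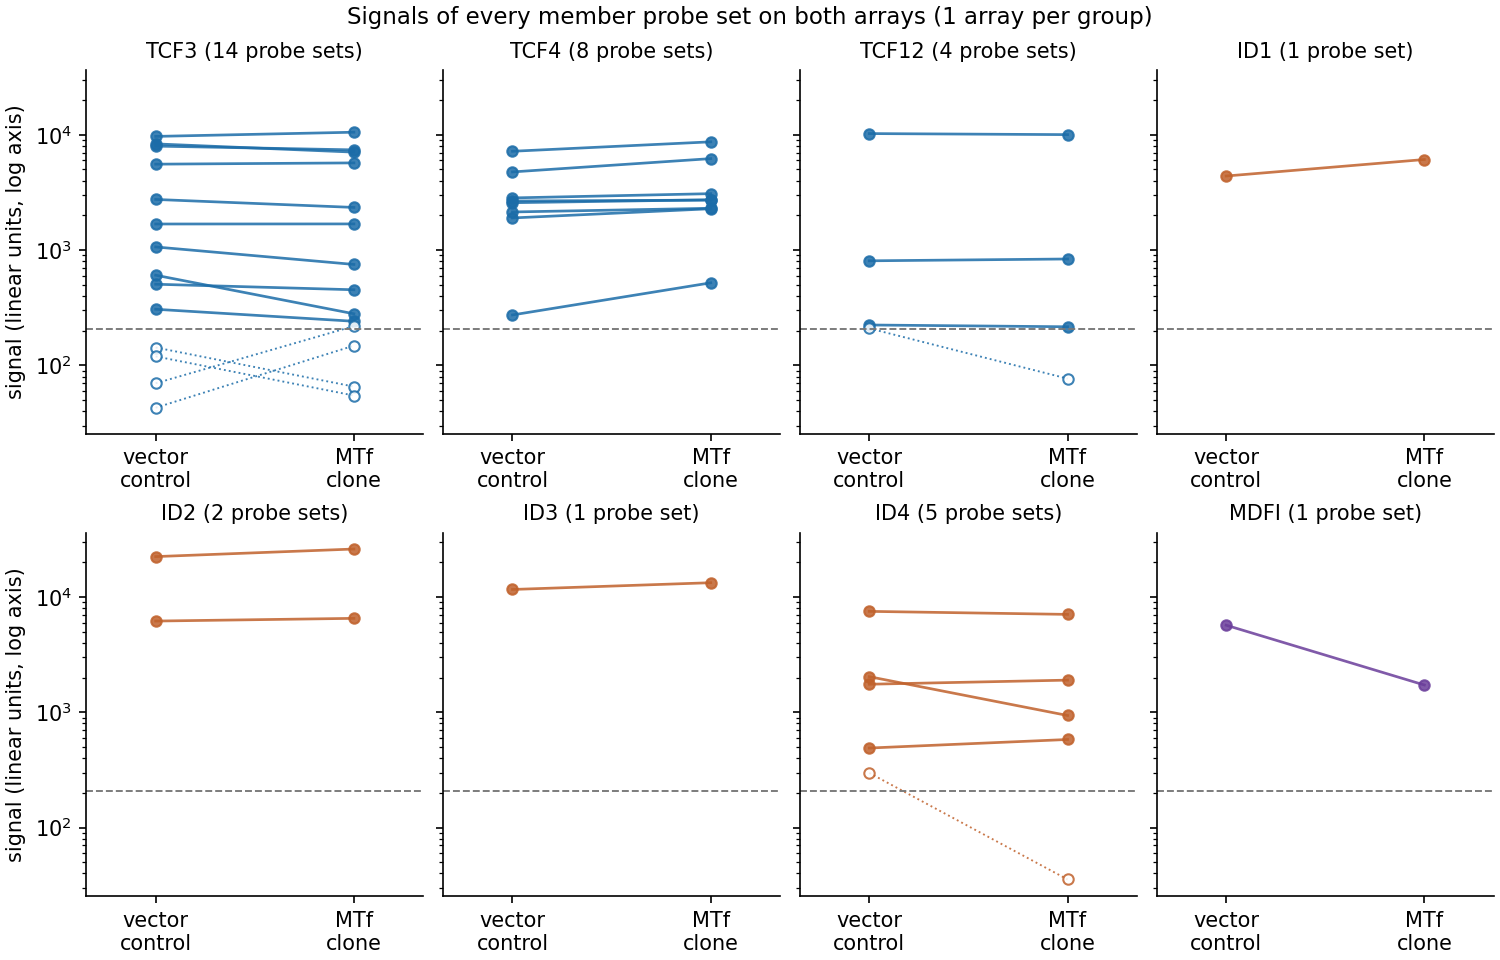
Signal of every member probe set on the vector control and the melanotransferrin (MTf) clone array, on a log axis, with 1 line per probe set and 1 panel per gene. The dashed line is the floor of 208, and open points with dotted lines mark probe sets below it on at least 1 array; the MDFI line drops from 5695 to 1724.9, while all 8 TCF4 lines run slightly upward as scaled by the authors (1 of 8 when centred on the poly-A spikes).

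MDFI, the inhibitor of MyoD family factors, gave a lower signal in the clone. Its 1 probe set, 205375_at, went from 5695 in the vector control to 1724.9 in the clone, a 3.30-fold lower signal and a log2 ratio of -1.72. Both signals were far above the floor, so the value is a measured ratio and not a bound. In RNA of a whole culture, fewer cells with the transcript and less of it per cell cannot be told apart. Among 10795 genes detected in both lines it ranked 9 from the lowest. At a mean signal of 1000 or more, where 0.405% of 11855 probe sets were at least 2-fold lower, it ranked 2 of 7425 genes, after MAGEA6. With a single probe set, no second reading of MDFI was to be had on these arrays. Its log2 ratio was -1.22 when centred on the hybridisation spikes and -2.33 when centred on the poly-A spikes, past 2-fold in both cases. MDFIC, a relative of MDFI that shares its inhibitory domain, read 8766.3 and 10706.9 on its brightest probe set, 1.22-fold higher, and 3 of its 4 measured probe sets were higher and 1 lower, from -0.49 to 0.29 on the log2 scale.

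Beside MDFI on chromosome 6, none of the nearest measured genes came near its ratio. The 5 nearest measured genes on each side had a median log2 ratio of -0.055 and none passed 2-fold. FOXP4, on one side, read 989.5 and 1059.2. FRS3, an adaptor of fibroblast growth factor receptors and the nearest measured gene on the other side, read 632.8 and 410.0, the lowest ratio of the 10 at -0.63. CCND3, cyclin D3, stood at -0.085 and OARD1 at 0.38. ID4 lies on the same chromosome. Its 10 neighbours had a median log2 ratio of -0.032, with TPMT, a thiopurine methyltransferase, at -1.19 and KDM1B, a histone demethylase, at -0.68 on one side. DEK and MBOAT1, the nearest measured genes to ID4, stood at -0.012 and -0.19. Around the other 6 members the median of the neighbours ran from -0.073 for TCF3 to 0.10 for ID1. This look at neighbours was added after the MDFI value was seen.

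**Figure D2:**
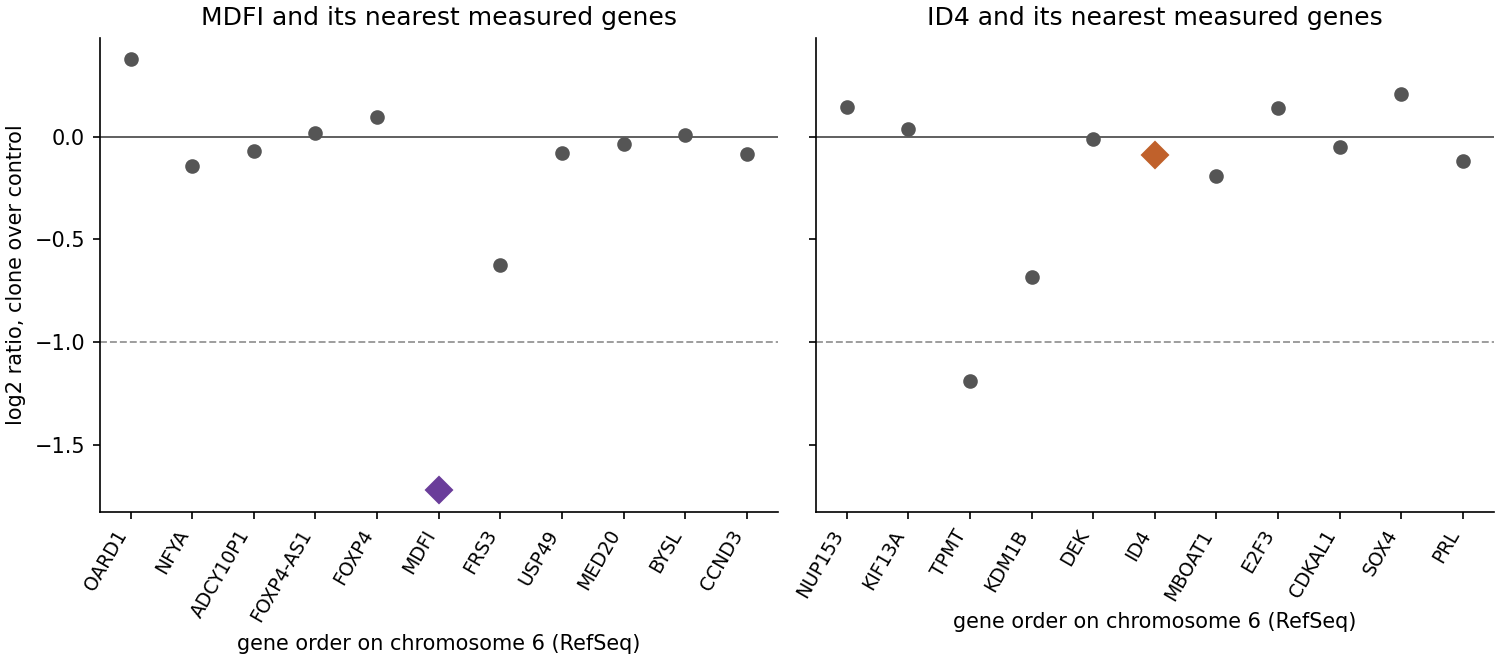
Log2 ratio of clone over control for MDFI and ID4 (diamonds) and the 5 nearest measured genes on each side (points), in gene order along chromosome 6. The dashed line marks 2-fold lower; MDFI at -1.72 stands apart from its neighbours, which lie between -0.63 and 0.38.

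The ID inhibitors read slightly higher in the clone for ID1, ID2 and ID3 (lower when centred on the poly-A spikes), and disagreed between probe sets for ID4. ID1 is the family member best known as a BMP target. Its 1 probe set, 208937_s_at, went from 4386.7 to 6099.6, 1.39-fold higher and a log2 ratio of 0.48. This lay beyond the pooled SD of 0.35 between probe sets. ID2, which besides E proteins has been linked to the retinoblastoma protein, read 22412.3 and 26074.5 on 201565_s_at, 1.16-fold higher and a log2 ratio of 0.22. Its second probe set, 201566_x_at, read 6185.7 and 6529.5, a log2 ratio of 0.078. Both lay inside the SD of 0.35 over all signals, but the first lay beyond the SD of 0.17 for probe sets as bright as these. Neither lay beyond the SD of 0.24 across all probe sets that bright. 1 further probe set is annotated to ID2 together with another gene and was not used. ID3 read 11625.3 and 13305.3 on 207826_s_at, 1.14-fold higher. Its log2 ratio of 0.19 likewise lay inside 0.35, beyond 0.17 and inside 0.24. Centred on the poly-A spikes the ratios of ID1, ID2 and ID3 turned to -0.13, -0.39 and -0.42.

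ID4, an inhibitor prominent in the nervous system, had 5 probe sets with no common direction. The brightest, 209291_at, read 7506.8 and 7067.5, a log2 ratio of -0.087. 209292_at read 1751.5 and 1901.4, and 226933_s_at read 489.8 and 581.0, log2 ratios of 0.12 and 0.25. These 3 gave no difference beyond the spread between probe sets. 209293_x_at went apart, at 2037 and 938.3, 2.17-fold lower. The suffix x marks probe sets whose probes may also match other transcripts. 229386_at went from 297.8 to 35.5, under the floor in the clone, so it was at least 1.43-fold lower. The log2 ratios of the 4 probe sets detected in both lines spanned 1.36. Of 974 genes with 4 or more such probe sets, 23.2% had ratios at least 1 apart on the log2 scale, TCF3 and ID4 among them. Which part of the ID4 transcript each probe set reads was not tested.

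TCF4, an E protein of neural and lymphoid cells, read higher in the clone on each of its 8 probe sets, by small amounts, as scaled by the authors; centred on the poly-A spikes 1 of the 8 was higher, and after quantile normalisation 7 were. The brightest, 212386_at, read 7190.5 and 8682, 1.21-fold higher, and 213891_s_at read 4760.4 and 6210, a log2 ratio of 0.38. 212382_at read 1898.6 and 2281.5, a log2 ratio of 0.27. The next 3 were closer to even: 203753_at read 2832.5 and 3084.3, 212385_at read 2139.4 and 2303, and 212387_at read 2573.5 and 2729.4, with log2 ratios of 0.12, 0.11 and 0.085. 222146_s_at was almost level, at 2664.5 and 2711.1. The dimmest, 228837_at, gave the widest difference, from 273.6 to 519.7, 1.90-fold higher, with a control signal just above the floor. The 8 log2 ratios had a median of 0.19 and an SD of 0.29, and 6 of the 8 lay within the pooled SD of 0.35. Of those 6, 212386_at, at 0.27, lay beyond the SD of 0.17 at its own brightness and just beyond the 0.24 across all probe sets that bright. Of the 974 genes with at least 4 detected in both lines, 10.2% had all of them higher. Probe sets of 1 gene share the RNA and the arrays and are not replicates of the clone. The median of 10 neighbouring genes was -0.020.

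TCF7L2, an HMG-box factor of the Wnt pathway that has also gone by the name TCF-4, is a different gene. Its brightest probe set read 3966.2 and 5019.1, a log2 ratio of 0.34, with 4 of 6 measured probe sets higher and 2 lower. TCF4 probe sets here are those annotated to the E protein on chromosome 18.

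TCF3, the E protein best known from lymphocyte development, had 14 probe sets, of which 10 were detected in both lines. The brightest, 209153_s_at, read 9676.6 and 10522.2, a log2 ratio of 0.12. 213730_x_at read 5558.1 and 5700.7, and 215260_s_at read 1682.5 and 1685.1, so these were close to even. The other 7 were lower. 210776_x_at read 8335 and 7069.1, 213811_x_at read 7970.8 and 7394.6, and 209152_s_at read 2747.4 and 2342.6, with log2 ratios of -0.24, -0.11 and -0.23. The first of these lay beyond the SD of 0.17 for bright probe sets of 1 gene, but not beyond the 0.24 across all probe sets that bright. 209151_x_at read 1063.9 and 750.1, a log2 ratio of -0.50. The 3 dimmest were 202648_at at 605.1 and 280, 216645_at at 505.3 and 452.4, and 216647_at at 306.5 and 241.1. 202648_at, 2.16-fold lower, was the only TCF3 probe set past 2-fold, in a signal range (under 1000) where 2.64% of 8336 probe sets were at least that much lower. Of the other 4, 228052_x_at read 69.9 and 218.8, at least 1.05-fold higher, and 213732_at, 213731_s_at and 213809_x_at were undetected in both. The median log2 ratio of the 11 measured probe sets was -0.16, opposite in sign to the brightest one. All probe sets with a mean signal under 500 and detected in both lines had a median of -0.081, against 0.0051 at 5000 or more, and the median signal of the genes behind the floor went from 67.4 in the vector control to 44.0 in the clone; their part in the dim TCF3 values was not tested.

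TCF12, an E protein found in many tissues, gave near-equal readings. 208986_at read 10237.8 and 10025, a log2 ratio of -0.030. 238041_at read 806.5 and 836.6, and 233678_at read 223.9 and 216.1, log2 ratios of 0.053 and -0.051. 215611_at read 209.2 and 76.7, so it barely passed the floor in the control and missed it in the clone. The 3 ratios of probe sets detected in both lines had an SD of 0.055, narrower than the pooled SD of 0.35.

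**Figure D3:**
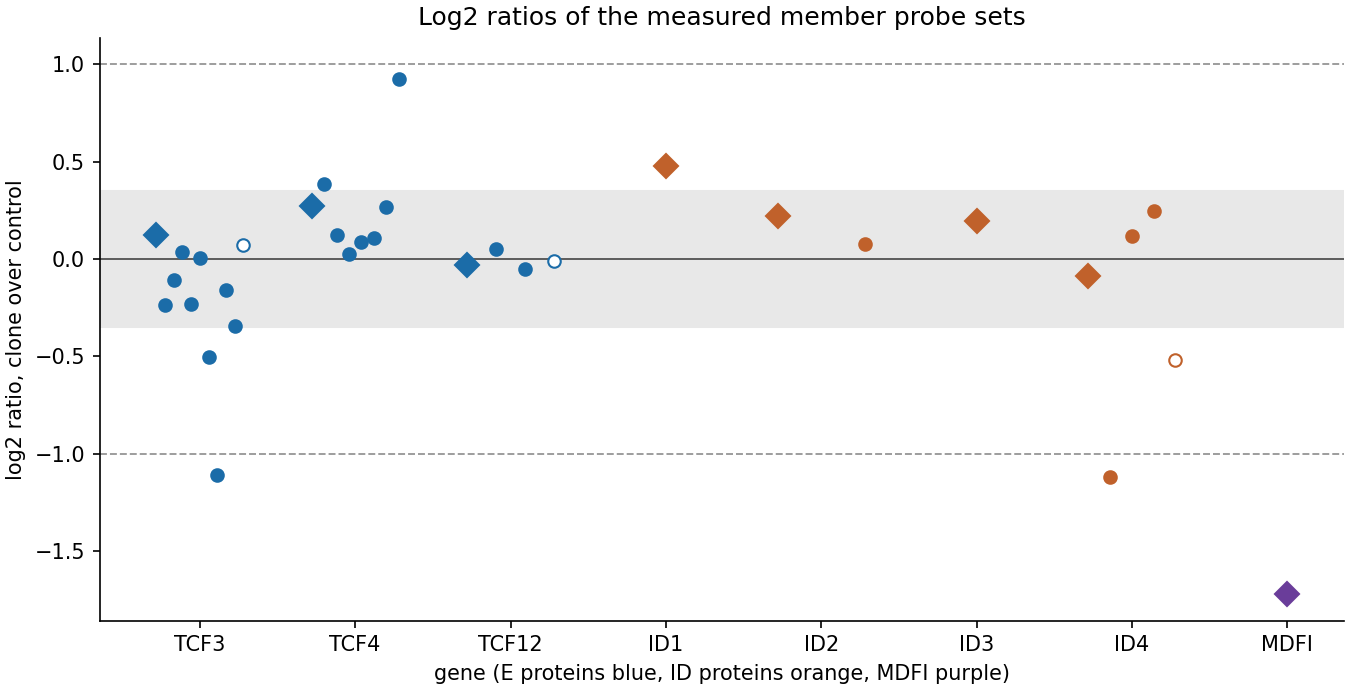
Log2 ratio of clone over control for the 33 measured member probe sets, grouped by gene, with diamonds for the brightest probe set of each gene and open points for bounds below the floor on 1 array. The grey band is the pooled SD of 0.35 between probe sets of a gene and dashed lines mark 2-fold; MDFI, 1 ID4 and 1 TCF3 probe set lie below the lower line and none lies above the upper one.

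**Figure D4:**
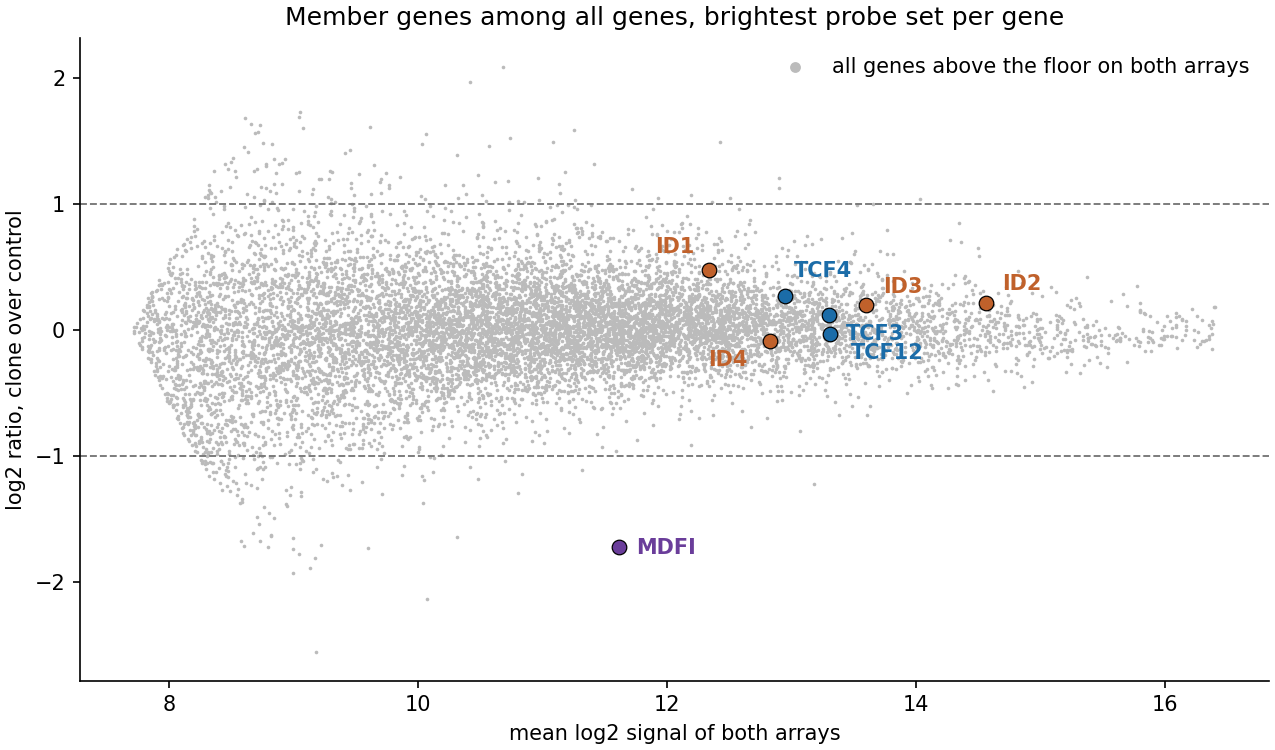
Log2 ratio of clone over control against mean log2 signal for the 10795 genes detected in both lines (grey, brightest probe set each), with the 8 members named. Dashed lines mark 2-fold; 7 members lie in the body of the cloud and MDFI lies well below it at its signal.

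Other genes of the system were taken from 5 lists: partners of E proteins, cofactors and modifiers, BMP and SMAD regulators, E-box repressors with cell cycle genes, and other factors sharing the TCF name. Most bHLH partners were not measured in this line. Of 33 with a probe set, 24 were undetected in both lines, including the myogenic MYOD1 and MYOG and the neurogenic NEUROG1 and NEUROG2. The 9 measured ones had a median log2 ratio of -0.25, 3 higher and 6 lower, and 0 passed 2-fold. Among the lower ones, NEUROD2, HAND1 and MYF6 were detected in the vector control alone, so the floor allowed them no higher reading. The 6 detected in both lines were divided: TCF15, MESP1 and BHLHE22 were higher, and TWIST1, NEUROD6 and ATOH8 lower. The median of the 9 thus gives no direction for the list. TWIST1, a mesenchymal partner of E proteins, read 20938.9 and 15265.6, a log2 ratio of -0.46. BHLHE22, a neuronal member, read 8128 and 9984.7, and NEUROD6 read 2857.3 and 2291.9, in opposite directions at 0.30 and -0.32. TCF15, a factor of somite formation, went from 227.6 to 382.2 near the floor, a log2 ratio of 0.75. HAND1 read 339.2 and 165.6 and MYF6 326.0 and 38.7, both below the floor in the clone.

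Among cofactors and modifiers, LDB1 alone passed 2-fold. LDB1 is a scaffold that joins LMO proteins to complexes with E proteins. It went from 761.8 to 316.7, 2.41-fold lower, and its other measured probe set had a log2 ratio of -0.59. It was the only gene past 2-fold in the 5 lists, which held 9, 18, 22, 13 and 6 measured genes. In its own list of 18, 0 were higher by that much. LDB1 was found by looking through all 5 lists, so its own list alone is not the set to weigh it against. Over all measured genes, 1.9% were at least 2-fold lower. In its signal range, under 1000, that share was 2.64% of probe sets. The median log2 ratio of that list was -0.022, with 9 genes higher and 9 lower. WDR48, the partner that activates the deubiquitinase USP1, read 1938.1 and 1073.2. All 4 of its measured probe sets were lower as scaled by the authors, from -0.85 to -0.26 on the log2 scale. USP1 itself, which keeps ID proteins from degradation, read 19722.4 and 23790.1 on its brightest probe set and lower on its other one, with log2 ratios of 0.27 and -0.33. LMO4, which binds LDB1, read 3674.6 and 2080.7 on its brightest probe set, but 3 of its 5 measured probe sets were higher. LMO2, which joins LDB1 and E proteins in blood and vessel cells, read 2708.5 and 3566. Genes of the lists under 2-fold are named as examples picked with their values in view.

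BMP and SMAD regulators of the ID genes were divided, with 11 of 22 measured genes higher, 11 lower and 0 past 2-fold, and a median log2 ratio of 0.10. Relative to all genes that median was 0.12, and 0.0037 without the _s_at and _x_at probe sets. Of the SMADs that carry BMP signals, SMAD9 read 12043.5 and 15181.8, SMAD5 5077.3 and 6117, and SMAD1 2479 and 2129.5, with log2 ratios of 0.33, 0.27 and -0.22 on the brightest probe sets. As scaled by the authors, both probe sets of SMAD9 were higher, whereas 2 of 5 for SMAD5 were lower and 2 of 3 for SMAD1 were higher. SMAD6, an inhibitory SMAD, read 1482.4 and 2011.3 on its brightest probe set, and its other probe set was level at -0.00076. SMAD7, also inhibitory, read 339.7 and 286.4, a log2 ratio of -0.25. Of the ligands, BMP2 and BMP7 read higher on every measured probe set as scaled by the authors. Their brightest went from 604.0 to 852.9 and from 355.1 to 504.5. The log2 ratios, up to 0.54 for BMP2 and 0.51 on the brightest of BMP7, were less than the 0.61 that poly-A centring takes away. BMP6 went from 947.6 to 817.3, and BMP4 and BMP5 were undetected in both lines. All 6 measured probe sets of the receptor BMPR2 were lower as scaled by the authors, from -0.75 to -0.019 on the log2 scale, with the brightest almost level at -0.019. The share of all genes with every probe set lower was not counted. NOG, the BMP antagonist noggin, read 162.4 and 296.7, at least 1.43-fold higher, while another antagonist, GREM1, went from 251.8 to 59.3, at least 1.21-fold lower.

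Of the E-box repressors and cell cycle genes, 12 of 13 measured genes were higher on their brightest probe set and 1 lower. The median log2 ratio was 0.10 and 0 passed 2-fold, while 47.1% of all measured genes were higher. The highest was 0.47, less than the 0.61 that centring on the poly-A spikes takes away, so all 13 would be lower under it. Other probe sets of a gene could differ. ZEB1 and RBL1 were lower on 2 of 3 measured probe sets, and RB1 read -1.36 on its other one, while both of CDKN2A were higher. CDKN2A, whose p16 product restrains the cell cycle, read 13039.5 and 18018.3, and SNAI2, a repressor of epithelial genes, read 708.9 and 953.6, log2 ratios of 0.47 and 0.43. CDKN1A, the p21 inhibitor, read 294.2 and 316.2. ZEB1 and ZEB2, which repress through E-boxes, were near even on their brightest probe sets, at 0.062 and 0.092. ELK1, an ETS factor that ID proteins can bind, was the lower one at -0.34. The 6 measured genes of the remaining list, TCF7L2 among them, had a median of 0.095, with 3 higher and 3 lower.

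**Figure D5:**
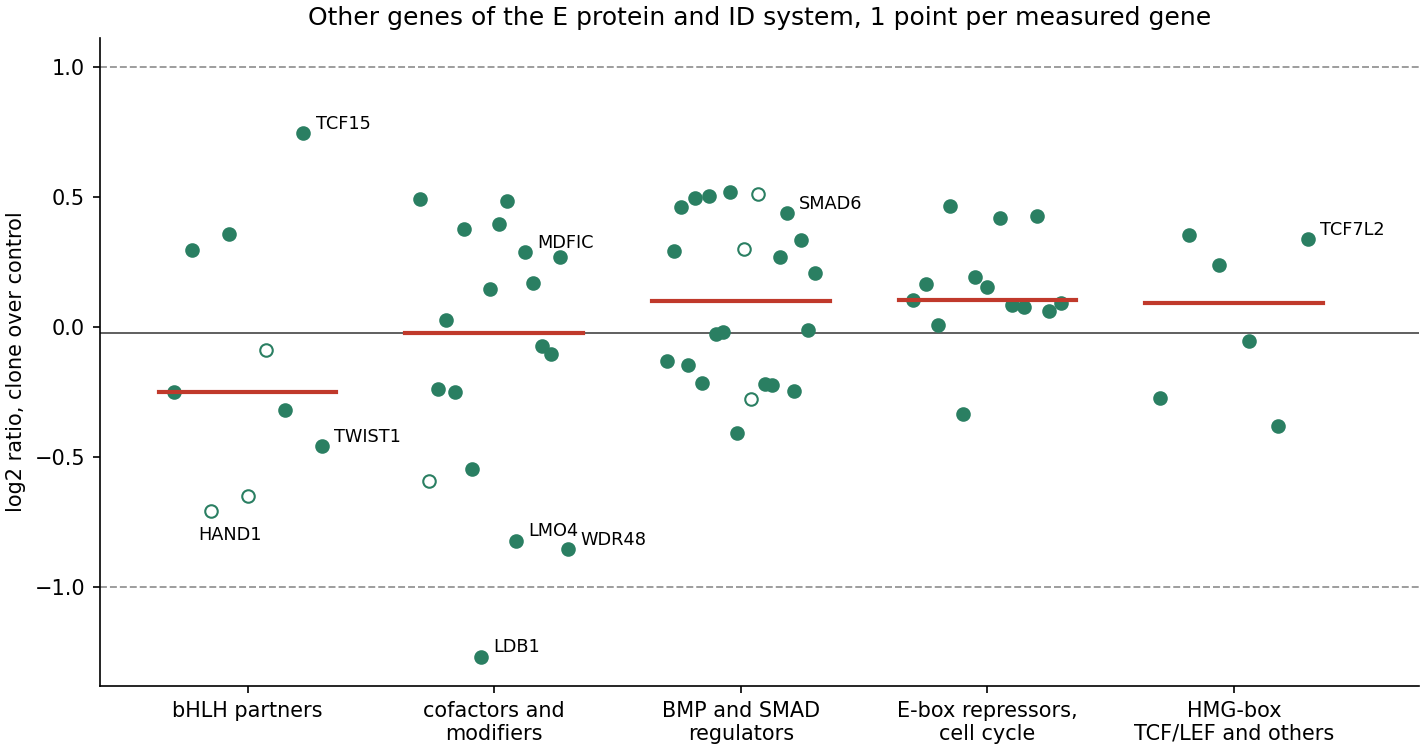
Log2 ratio of clone over control for each measured gene of the 5 lists, brightest probe set per gene, with open points for bounds below the floor on 1 array. Red bars are list medians, the grey line is the median of all measured genes at -0.022 and dashed lines mark 2-fold; LDB1 at -1.27 is the only gene past it.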

How the data were processed

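Total RNA of 2 stably transfected SK-N-MC lines, 1 per group, was measured on Affymetrix U133 Plus 2.0 arrays, per the labels. The authors deposited 1 linear intensity per probe set, made with GCOS 1.3 per the submitters' processing notes; for the summary method and the scaling target, nothing was given in the sources used here. The 2% trimmed mean was 1000.12 on both arrays, so a change common to most transcripts cannot be seen.

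Of 54675 probe sets, 41097 had 1 gene in the 2016 platform annotation, 1801 several and 11777 none here; 41043 matched RefSeq (GRCh38.p14) by gene ID. The floor was the 90th percentile of 191 probe sets for olfactory receptor, bitter taste receptor and keratin-associated genes. A probe set below it on 1 array was set against the floor, as a bound. A gene was read on its brightest probe set. The rule for named genes took all members, list genes at least 2-fold apart, MDFIC, TCF7L2 and MELTF. Neighbours, list genes under 2-fold and MAGEA6 were named outside it, after their values were seen; no gene was named for a pattern like a member's, since 2 arrays give 1 ratio. Members and lists were chosen with earlier results of these data known. With 1 array a group there is no test. Alternatives were 4 scalings, 2 choices of probe sets, 3 floors and a 1.5-fold threshold. Calculations were run in Python 3.11.15 with numpy 2.4.6, pandas 2.3.3 and statsmodels 0.14.6, and checked on simulated data. The changes planted there all exceeded 2-fold and the noise was below the pooled SD of 0.35, so smaller ratios were not checked.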

Additional observations from a re-analysis of the deposited data

How the results depend on the processing

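MDFI kept its direction and its side of 2-fold under the 4 other scalings, with a log2 ratio from -2.33 to -1.22. The other floors and choices of probe sets could not change it, since its 1 probe set is an _at set with both signals far above any floor tried, and say nothing of its stability. The number of member genes at least 2-fold apart stayed at 1 lower and 0 higher in each alternative, the 1.5-fold threshold included. Scaling moved the rest. Centred on the 18 hybridisation spikes, which all read lower on the clone array, the log2 ratios were 0.62 for TCF3, 0.77 for TCF4, 0.47 for TCF12, 0.98 for ID1, 0.72 for ID2, 0.70 for ID3, 0.41 for ID4 and -1.22 for MDFI. Centred on the 24 poly-A spikes with signal, which all read higher on it, they were -0.49, -0.34, -0.64, -0.13, -0.39, -0.42, -0.70 and -2.33 in the same order, and 1 TCF4 probe set in place of 8 was higher. Both shifts follow from the centring itself. Under loess, quantile normalisation and other probe set choices each member gene with a value stayed within the pooled SD of 0.35 of it. TCF3 turned sign under both probe set choices. The other floors left every member value as it was, since each brightest probe set lay far above them, and say nothing of stability. The median over probe sets could not change ID1 and ID3 either, which have 1 probe set each. ID1, ID2 and ID3 have no value without _s_at and _x_at probe sets. The bHLH partner median, relative to all genes, ranged from -0.45 to -0.11. The -0.45 came without a floor, where undetected genes of the lists also enter, and the lowest with a floor was -0.31. No setting was limited to partners detected in both lines. With a floor, those detected in the vector control alone entered as bounds on the lower side, so the range gives no direction for that list. The BMP and SMAD list ranged from 0.0037 to 0.12 (0.016 with the median over probe sets). The E-box and cell cycle list ranged from 0.044, with the median over probe sets, to 0.18, without a floor. The medians of the TCF name list (lowest -0.027) and of the cofactor list (-0.059 to 0.10) changed sign in some settings. No paired analysis was possible because each group has 1 array.

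Each value rests on 1 array and 1 line per group, so culture, clone and transfection cannot be told apart. MDFI, ID1 and ID3 rest on 1 probe set each. Dim probe sets, among them 228837_at for TCF4 and 202648_at for TCF3, are the least precise: the pooled SD between probe sets was 0.47 at mean signals under 500 and 0.17 at 5000 or more.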
